A study of Mus musculus with 2 samples.

Results

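EP300 is a histone acetyltransferase that transcription factors bring to DNA, and it is a standard mark of enhancers and active promoters. It does not bind DNA letters of its own, so its peaks are usually read through the binding motifs of the factors that recruit it. The sequence just outside a promoter, upstream of the start or in the first intron, is where many genes carry their nearest enhancers. The stomach of a newborn mouse holds glandular and squamous epithelium, layers of smooth muscle, connective tissue, vessels, nerves and blood.

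The peaks described here are the 1235 EP300 peaks whose summit lies over 1 kb and at most 10 kb from the nearest start of a protein-coding transcript, called proximal peaks below. They are 16.0% of the 7733 peaks on chromosomes 1 to 19 and X in the authors' optimal set of 7737, the larger of their sets thresholded by the irreproducible discovery rate (IDR), which asks how well peaks repeat. The annotation gave 1322 summits in that window, and 87 of them were left out because a start of a non-coding RNA gene lay within 1 kb. The choice used positions alone and no measured value. Promoter peaks (2952 summits within 1 kb of a coding start) and distal peaks (3459 summits over 10 kb from any) serve for comparison. The material was stomach of B6NCrl mice at postnatal day 0, chromatin precipitated with an antibody to EP300 and sequenced in 2 libraries that form a single group. Both libraries carry the same biosample and donor label and the sex was not collected, so nothing here measures the spread between animals, and tests below compare peaks of this material with each other. No other condition, genotype or stage belongs to the series. Peaks of 1 list are not independent samples, neighbouring peaks share fragments, and p-values over peaks are therefore descriptive of these lists. No read counts are in the files and the depth is unknown.

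Proximal peaks were seated at 901 nearest genes, 648 of which had 1 proximal peak, 198 had 2, 34 had 3, 16 had 4 and 5 had 5. Upstream summits, outside coding transcripts on the 5′ side of the nearest start, numbered 428 (34.7%), and summits in a first intron numbered 424 (34.3%). The others lay in later introns (222), on the downstream side (101), in untranslated exons (48) and in coding exons (12). Of the first-intron summits, 403 lay in a first intron of the nearest gene and 21 in that of another gene. In 91 the summit lay on the 5′ side of the nearest start, in the first intron of another transcript of the same gene or of another gene. Positions are given below as signed distances in bp from the nearest coding start, negative on the 5′ side.

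The following windows of 120 bp around the summit are shown because they are the strongest upstream and first-intron peaks, outside exons, that hold within these 120 bp a motif more frequent at proximal summits than beside them. Capitals mark these motifs and the glucocorticoid response element (GRE), and all letters are the plus strand of GRCm38 (mm10). The upstream windows belong to Bnip3, a mitochondrial protein induced by low oxygen, at chr7:138919359-138919478 with a STAT motif; to Gclc, the catalytic subunit of the enzyme that starts glutathione synthesis, at chr9:77745018-77745137 with AP-1 beside a GRE; to 1700001K19Rik at chr12:110687994-110688113 with a CACCC box; and to Tmem210 at chr2:25286920-25287039 with an NFI site and a TEAD motif.
Bnip3: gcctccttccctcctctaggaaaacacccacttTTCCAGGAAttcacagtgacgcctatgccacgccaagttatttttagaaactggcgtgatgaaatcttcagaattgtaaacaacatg
Gclc: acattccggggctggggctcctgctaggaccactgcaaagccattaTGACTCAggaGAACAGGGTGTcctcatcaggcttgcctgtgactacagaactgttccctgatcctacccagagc
1700001K19Rik: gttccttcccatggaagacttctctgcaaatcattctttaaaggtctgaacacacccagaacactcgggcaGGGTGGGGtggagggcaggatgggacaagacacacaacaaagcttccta
Tmem210: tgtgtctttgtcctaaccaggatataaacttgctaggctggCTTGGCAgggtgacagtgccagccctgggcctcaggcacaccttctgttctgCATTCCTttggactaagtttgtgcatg

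The first-intron windows belong to Per1, a repressor of the circadian clock, at chr11:69097020-69097139 with an NFI site next to a GRE; to Nfic, a transcription factor of the NFI family, at chr10:81433040-81433159 with an E-box; to Hif3a, an alpha subunit of the hypoxia-inducible factors, at chr7:17058238-17058357 with a pair of NFI sites; and to Kyat1, a kynurenine aminotransferase, at chr2:30200200-30200319 with a CEBP motif.
Per1: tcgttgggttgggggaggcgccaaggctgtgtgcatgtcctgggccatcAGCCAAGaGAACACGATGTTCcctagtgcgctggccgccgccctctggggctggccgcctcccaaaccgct
Nfic: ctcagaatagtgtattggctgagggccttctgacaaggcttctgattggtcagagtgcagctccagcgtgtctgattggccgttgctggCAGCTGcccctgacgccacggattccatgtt
Hif3a: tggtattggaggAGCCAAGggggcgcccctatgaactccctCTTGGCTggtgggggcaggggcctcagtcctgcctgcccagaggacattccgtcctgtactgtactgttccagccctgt
Kyat1: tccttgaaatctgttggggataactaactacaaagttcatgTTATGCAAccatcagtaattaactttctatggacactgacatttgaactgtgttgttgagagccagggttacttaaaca

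Proximal summits were densest next to the promoter window and thinned with distance, both upstream and in first introns. Over the 392 Mb that the position rule admits, they stood at 3.15 per Mb (exact 95% Poisson interval 2.98 to 3.33), against 46.1 per Mb within 1 kb of coding starts and 1.65 per Mb beyond 10 kb. The promoter and distal values keep summits and sequence near non-coding RNA starts, which the proximal value leaves out. At 1 to 2 kb the density was 4.79 per Mb (260 summits), at 2 to 5 kb 3.08 (443) and at 5 to 10 kb 2.74 (532). The nearest bin was 1.75 times as dense as the farthest (exact binomial test on the 2 areas, two-sided, p = 9.24e-13). Summits of overlapping peaks were each counted: 40.8% at 1 to 2 kb and 33.6% at 5 to 10 kb overlapped another optimal peak. Density with 1 peak per region was not tested. Upstream summits numbered 5.81, 3.40 and 2.94 per Mb in these bins and first-intron summits 5.67, 3.31 and 2.88 per Mb. Later introns held 2.34, 2.18 and 2.37 per Mb, with no fall over the bins beyond the intervals. Coding exons held 0.938 per Mb (0.485 to 1.64). Because the tissue is a mixture, fewer cells with a bound site and less binding per cell cannot be told apart in any of these peaks.

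**Figure D1:**
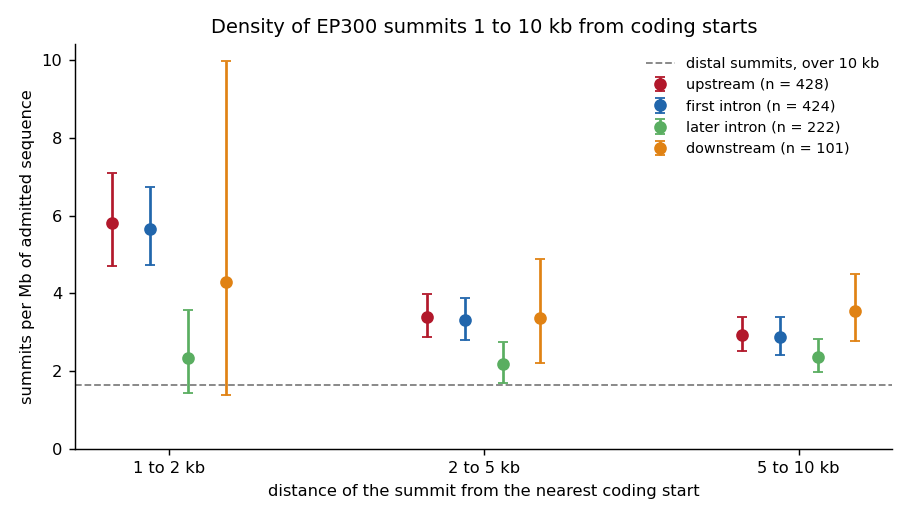
Summits per Mb of admitted sequence (y axis) by distance of the summit from the nearest coding start (x axis), for upstream, first-intron, later-intron and downstream proximal peaks, with exact 95% Poisson intervals. The dashed line is the 1.65 per Mb of distal summits, for which those near non-coding RNA starts were kept. Upstream and first-intron values lie within each other's intervals in every bin, and both are highest at 1 to 2 kb.

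Just inside the near border lay summits of Phf21a (1002 bp, signal 27.7), Rdh12 (1002 bp, 28.6) and Ncoa4 (1004 bp, 11.3), and just outside it Edn1 (992 bp, 23.8), Ssbp4 (991 bp, 14.0) and Krtap3-3 (990 bp, 26.2). Just inside the far border lay Plekho1 (9999 bp, 29.8), Zc3h12a (9992 bp, 34.9) and Kctd10 (9988 bp, 37.7), and just outside it Ergic1 (10008 bp, 25.4), Ctla4 (10013 bp, 29.9) and Ctnnb1 (10017 bp, 50.1).

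Proximal peaks were weaker than promoter peaks, and their difference from distal peaks did not pass the test. Peak signal is the authors' own number, and its scale differs from list to list. The median in the optimal list was 28.9 for proximal peaks (quartiles 22.8 and 36.3), against 32.1 (23.8 and 45.2) for promoter peaks and 29.5 (23.8 and 37.3) for distal peaks. A signal above the median of all peaks, 30.2, was found in 45.0% of proximal peaks (556 of 1235, exact 95% Clopper-Pearson interval 42.2 to 47.8%), against 55.6% of promoter peaks (1641 of 2952; log2 odds ratio -0.61, two-sided Fisher's exact test, p = 5.05e-10) and 47.1% of distal peaks (1630 of 3459; log2 odds ratio -0.12, p = 0.207). Among proximal peaks, 46.7% of upstream and 43.2% of first-intron peaks lay above it (log2 odds ratio 0.21, Fisher's exact test, p = 0.302), and 44.6% at 1 to 2 kb against 46.2% at 5 to 10 kb (p = 0.704). Against distal peaks the sign turned in either library's own list, with log2 odds ratios of 0.035 in library 1 and 0.15 in library 2, neither past the threshold of 0.05. The upstream peaks of the library 2 list stood above its first-intron peaks (log2 odds ratio 0.46, exact p = 0.0213). Intervals of shares cover counting error only.

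The authors' conservative IDR set, the smaller one, held 62.1% of proximal peaks (767), against 72.0% of promoter peaks (2125; log2 odds ratio -0.65, Fisher's exact test, p = 4.33e-10) and 64.4% of distal peaks (2226; log2 odds ratio -0.14, p = 0.168). Within the proximal peaks 63.1% of upstream and 59.7% of first-intron peaks were in it (exact p = 0.325). In the list of library 1 alone the shortfall against distal peaks passed the test (log2 odds ratio -0.26, exact p = 0.00752). A peak of both libraries' own lists had its summit inside 1086 proximal peaks (87.9%). This share was 87.7% for promoter peaks, 90.2% for distal peaks and 88.8% for all 7733 peaks, and each library's list holds 300000 peaks. The median signal of proximal peaks was 16.1 in library 1 and 16.2 in library 2, and the library 1 value was the higher in 538 of 1086. Across these peaks the signals of the libraries had a Spearman correlation of 0.19 and a Pearson correlation of 0.23 on the log2 scale, against 0.54 and 0.65 for promoter peaks and 0.23 and 0.30 for distal peaks. These correlations describe peaks that passed a joint threshold, and overlapping peaks can share a peak of a library's list. Proximal peaks that overlapped another optimal peak numbered 447 (36.2%), against 49.1% of promoter peaks and 35.7% of distal peaks.

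**Figure D2:**
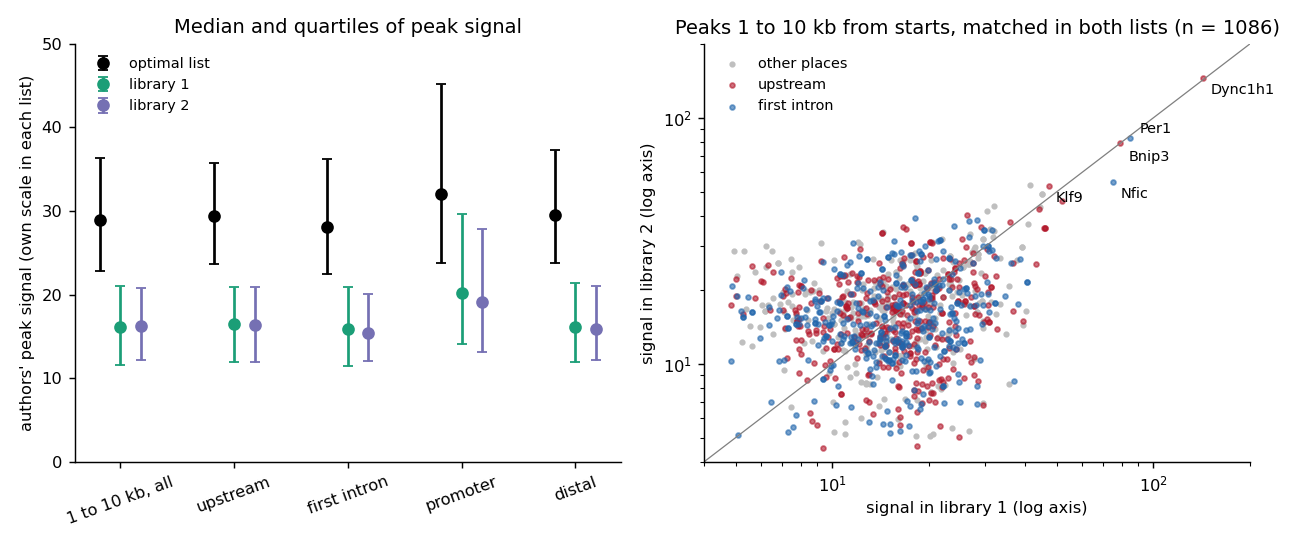
Left, medians (points) and quartiles (bars) of the authors' peak signal (y axis, own scale in each list) for proximal peaks, their upstream and first-intron parts, promoter peaks and distal peaks, in the optimal list and in each library. Right, signal in library 2 (y axis) against library 1 (x axis), both on log axes, for the 1086 proximal peaks matched in both lists, with equal values on the grey line. Promoter medians are the highest, and the peaks of Dync1h1, Per1, Bnip3 and Nfic stand apart from the rest in both libraries.

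A handful of upstream peaks stood far above the others. The strongest was a peak of 292 bp at chr12:110591485-110591776, 9817 bp upstream of Dync1h1, the heavy chain of cytoplasmic dynein. Its signal was 289.6 in the optimal list, 143.0 in library 1 and 145.4 in library 2, it lay in CpG-rich sequence, and its summit was 1123 bp from the nearest non-coding RNA start, just past the 1 kb left out. The Bnip3 peak at -9913 had 157.9, with 78.6 in library 1 and 78.9 in library 2. Both of these narrow peaks gave nearly equal values in the libraries.

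The next upstream peaks were those of Srbd1, Klf9 and Txnip. Srbd1 had 99.6 at -5950, with 52.0 in library 1 and 45.9 in library 2. Klf9, a transcription factor gene that glucocorticoids induce, had 92.0 at -5268, with 47.3 in library 1 and 53.1 in library 2. Txnip, which binds thioredoxin and limits glucose uptake, had 83.8 at -6432, with 44.2 in library 1 and 42.4 in library 2. These were close to equal in the libraries, and Klf9 and Txnip each also had a promoter summit. Mtfp1, a mitochondrial fission protein, had 83.3 at -1388 in CpG-rich sequence, Gclc had 81.0 at -9457, and Zfp503, a zinc finger protein, had 72.8 at -1823. Gclc had 46.0 in library 1 and 35.7 in library 2. The upstream list of 12 closed with 1700001K19Rik (67.7 at -5435), Tmem210 (66.5 at -1165), Igf1r, the receptor of insulin-like growth factor (65.8 at -1709), and Id1 (65.5 at -1111). Of the 12, those of Dync1h1, Klf9, Mtfp1, Igf1r and Id1 lay in CpG-rich sequence, beside 10.3% of all upstream peaks. All 12 were in the conservative set, beside 66.9% of all 7733 peaks. They were picked for their signal, so this says little about these peaks in particular.

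In first introns the strongest peak was that of Per1, at chr11:69096916-69097192 and +1863, with 176.9 in the optimal list, 84.8 in library 1 and 82.9 in library 2. Nfic followed with 125.0 at -2095, and with 75.1 in library 1 and 55.0 in library 2. These narrow peaks also stood clear of the others in both libraries. Below them came Hif3a (68.5 at -1619), Erbb2, a receptor tyrosine kinase (67.9 at +6639), Kyat1 (67.5 at -1901), Mast4 (65.8 at -4128) and Ccnd3, a D-type cyclin (64.5 at +2936). Trim8 had 63.2 at +2486, but 18.1 in library 1 and 39.0 in library 2. Ltbp4, which binds latent TGF-beta in the matrix (59.4 at +2356), Tet3, a dioxygenase of methylated cytosine (59.3 at -1235), C77080 (58.4 at -5004) and Slc10a6, a transporter of sulfated steroids (57.2 at +8707), closed the 12. All 12 were in the conservative set, beside 66.9% of all 7733 peaks, and they too were picked for their signal. In all, 7 proximal peaks were narrower than the full width of 560 bp, with a median signal of 125.0.

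The genes with the most proximal peaks were Actn4, Ptma, Kdm6b, Srgap2 and Hook2 with 5 each. Actn4, an actin crosslinker, had 46.1 and 40.0 in first introns at -3285 and -6317, 38.7 at +3930 in the first intron, and 44.5 and 27.2 upstream at -7715 and -8970, in 5 separate regions. Its strongest had 24.9 in library 1 and 19.7 in library 2. Hook2, a microtubule adaptor, had all 5 upstream, the strongest 40.6 at -5631, and Srgap2, a regulator of Rac in cell shape, had all 5 in first introns, the strongest 40.1 at +2785. Each of these sets fell into 3 regions of overlapping peaks, so their members are not separate sites. The Hook2 peaks lay between the starts of Hook2 and Junb and were counted for Hook2, the nearer one. Ptma, prothymosin alpha, had its strongest at +1384 (51.2), and Kdm6b, a demethylase of H3K27, at +2190 (39.8). Id1 had 4 in 4 regions, Txnip 4 in 3 regions and Gm10073 4 in 3 regions with a peak of 94.9 on its downstream side at +9379.

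Proximal summits lay mostly in CpG-poor sequence, far less often in CpG-rich sequence than promoter summits and more often than distal summits. The median GC content within 100 bp of the summit was 49.8%, against 59.7% at promoter and 46.3% at distal summits, and the ratio of observed to expected CpG was 0.24, against 0.77 and 0.22. Windows of 501 bp with at least 50% GC and a CpG ratio of at least 0.6, called CpG-rich, held 8.50% of proximal summits (105), against 70.5% of promoter summits (log2 odds ratio -4.68, Fisher's exact test, p too small for the software to hold) and 2.95% of distal summits (log2 odds ratio 1.61, p = 2.12e-14). The CpG-rich share was 18.8% at 1 to 2 kb against 4.32% at 5 to 10 kb (log2 odds ratio 2.34, exact p = 1.93e-10). Upstream it was 10.3%, against 6.13% in first introns (log2 odds ratio 0.80, exact p = 0.0334), but with 1 start for each gene the order turned (log2 odds ratio -0.71, p = 0.0135), and among the stronger peaks or in the list of library 1 the test was not passed. Summits in repeat-masked sequence were 9.31%, against 8.67% of promoter (exact p = 0.512) and 11.3% of distal summits (p = 0.061).

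Some of these genes also had EP300 at a promoter. The nearest gene also had a promoter summit for 320 proximal peaks (25.9%), and 210 of the 901 genes (23.3%) had one, beside 2162 of all 21670 coding genes (9.98%). The share was 25.7% of upstream and 28.8% of first-intron peaks (log2 odds ratio -0.22, Fisher's exact test, p = 0.318), and the sign turned in 3 of the alternatives, while in the list of library 1 alone the lower upstream share passed (log2 odds ratio -0.46, p = 0.0358). It was 33.8% at 1 to 2 kb against 22.0% at 5 to 10 kb (log2 odds ratio 0.86, exact p = 0.000526). This distance difference did not pass in the list of library 2 (log2 odds ratio 0.39, exact p = 0.109) or with 1 start for each gene (0.39, p = 0.158), and was -0.062 among the stronger peaks (p = 1).

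At proximal summits, binding motifs of AP-1, GRHL, TEAD, NFI, CEBP, STAT and KLF or SP factors and the E-box CAGCTG were more frequent than 1 kb further from the start. Each of 35 motifs was searched on both strands within 100 bp of the summit and in a flank of the same width, and counts were compared by two-sided McNemar tests in their exact form, with Benjamini-Hochberg adjustment for 35 tests. In all 9 motifs were more frequent at the summit (25.7% of those tested) and 1 less frequent (2.86%). AP-1 (TGACTCA), bound by Jun and Fos proteins, was at 146 summits (11.8%) and 50 flanks (4.05%), 2.92 times as many (exact adjusted p = 2.57e-11). GRHL (AACCGGTT or AACAGGTT), the motif of grainyhead-like factors of epithelia, was at 53 and 10 (5.30 times, exact adjusted p = 1.06e-07). STAT (TTCCNGGAA) was at 26 and 4 (6.50 times, exact adjusted p = 0.000238), though the list of library 2 did not pass (adjusted p = 0.143), nor did windows of 50 bp each side (0.0786). The GC box of KLF and SP factors (CCCCGCCC) was at 69 and 17 (4.06 times, exact adjusted p = 9.2e-08) and the CACCC box (CCCCACCC) at 105 and 54 (1.94 times, adjusted p = 0.000105).

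The commonest motifs differed less between summit and flank. TEAD (CATTCCA or CATTCCT), the partner of the Hippo effector YAP, was at 167 summits and 99 flanks (1.69 times, exact adjusted p = 8.66e-05), and CEBP (TTGCNNAA) at 154 and 84 (1.83 times, adjusted p = 2.15e-05). The NFI site (CTTGGCA or CTTGGCT) was at 166 and 100 (1.66 times, exact adjusted p = 0.000105) and the E-box CAGCTG, bound by basic helix-loop-helix factors, at 195 and 127 (1.54 times, adjusted p = 0.000238). NFI did not pass among the stronger peaks (exact adjusted p = 0.0709) or against a flank nearer the start (0.0543). The nuclear receptor motif (CAAGGTCA) was at 8 summits and 24 flanks (0.333 times, exact adjusted p = 0.0245), a call lost in 9 of 14 alternatives, with each library's list among them. Among motifs that did not pass, the GRE (ACANNNTGTTC) was at 30 and 15 (exact adjusted p = 0.0961) and ETS (CCGGAAGT) at 10 and 2 (adjusted p = 0.0974). GC content was higher at the summit than in the flank for 760 of 1235 peaks, with medians of 49.8% and 47.3%, and its part in the motif counts was not tested. A match describes letters in a window and not a bound site, and the second GRHL form shares letters with the E-box CAGGTG. Over all 7733 summits AP-1 was in 9.74% of windows, GRHL in 2.77%, STAT in 1.5%, the GC box in 7.15%, the CACCC box in 6.31%, TEAD in 10.3%, CEBP in 11.3%, NFI in 11.2%, CAGCTG in 12.5%, the GRE in 2.55%, ETS in 2.41% and the nuclear receptor motif in 0.931%.

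**Figure D3:**
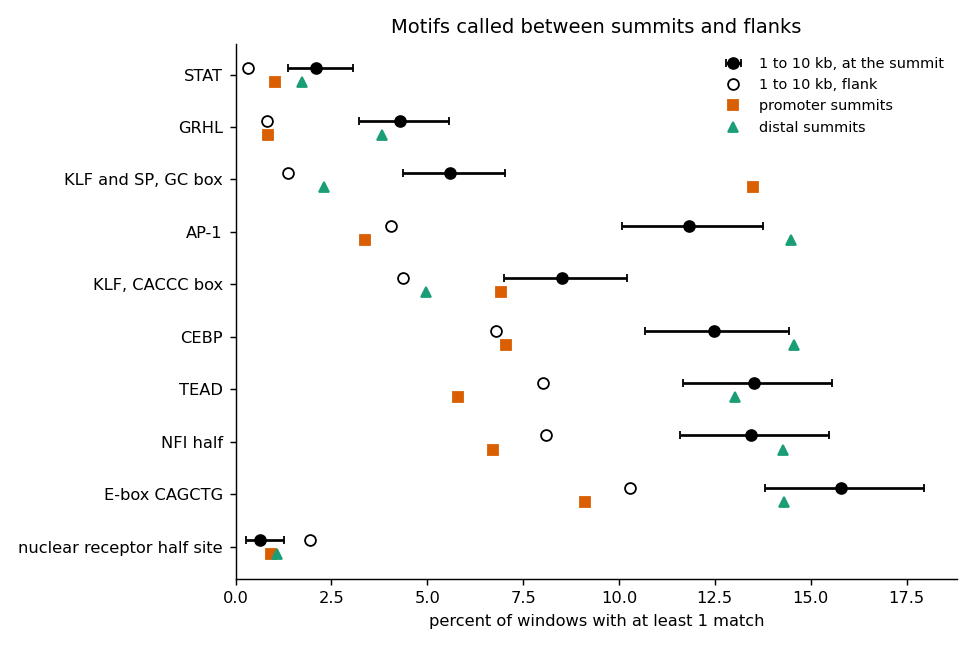
Percent of 201 bp windows with at least 1 match (x axis) for the 10 motifs called between summits and flanks (y axis): proximal summits with exact 95% intervals (filled circles), their flanks (open circles), promoter summits (squares) and distal summits (triangles). The filled circles lie right of the open ones for 9 motifs and left for the nuclear receptor motif, and promoter summits have the largest share of GC boxes, 13.5%.

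**Figure D4:**
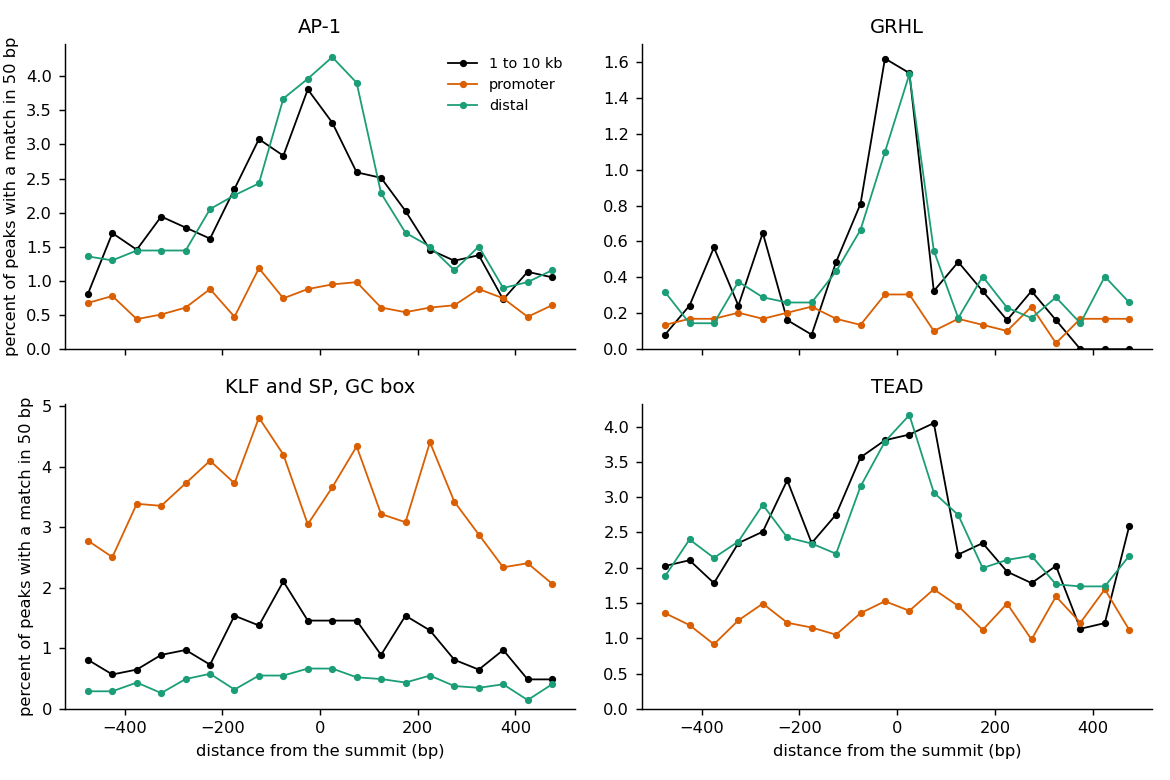
Percent of peaks with a match in bins of 50 bp (y axis) by distance from the summit along the plus strand (x axis), for AP-1, GRHL, the GC box and TEAD at proximal, promoter and distal peaks. AP-1 at proximal peaks reaches 3.81% in the 50 bp before the summit, against 0.810% and 1.05% in the outermost bins and 1.70% at -425 bp. Within 100 bp of the summit its curve lies below that of distal peaks, with 2.59% against 3.90% at 75 bp. Further out it lies above in most bins, with 3.08% against 2.43% at -125 bp.

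No motif of 35 was called more (0%) or less (0%) frequent upstream by Fisher's exact test with Benjamini-Hochberg adjustment, and 2 had an unadjusted p under 0.05. These were SOX (ACAATGG or ACAAAGG), at 3.97% upstream against 9.20% in first introns (exact p = 0.00222, adjusted p = 0.0777), and the NFI site, at 11.7% against 16.7% (p = 0.0391, adjusted p = 0.562). With narrower or wider rules on non-coding starts, from 2 kb on, or without CpG-rich summits, 1 motif was called less frequent upstream. AP-1 stood at 13.3% upstream and 9.43% in first introns (exact adjusted p = 0.562), and GRHL at 4.44% and 5.66% (adjusted p = 1). By distance, AP-1 was in 8.08% of windows at 1 to 2 kb, 12% at 2 to 5 kb and 13.5% at 5 to 10 kb, and the GC box in 7.69%, 6.09% and 4.14%, values given without a test.

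Against promoter summits, 17 motifs were more frequent at proximal summits (48.6% of those tested) and 7 less frequent (20%), by Fisher's exact tests with Benjamini-Hochberg adjustment. AP-1 was at 11.8% of proximal against 3.39% of promoter summits (log2 odds ratio 1.93, exact adjusted p = 4e-22), TEAD at 13.5% against 5.79% (1.35, adjusted p = 1.76e-14), GRHL at 4.29% against 0.847% (2.38, adjusted p = 1.86e-11) and the GRE at 2.43% against 0.576% (2.09, adjusted p = 3.09e-06). The 7 less frequent ones were ETS (0.810% against 5.52%), the GC box (5.59% against 13.5%), NF-Y, YY1, NRF1, CTCF and the E-box CACGTG. These groups differ in CpG content: without CpG-rich summits, 1130 proximal and 871 promoter summits were left, with 6 motifs more and 3 less frequent. AP-1 was then at 12.7% against 7.0% (log2 odds ratio 0.95, exact adjusted p = 0.000495), and the GC box, at 3.81% against 5.17%, did not pass (adjusted p = 0.273).

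Against distal summits, 2 motifs were more frequent at proximal summits (5.71% of those tested) and 4 less frequent (11.4%). The GC box was at 5.59% of proximal against 2.31% of distal summits (log2 odds ratio 1.32, exact adjusted p = 4.08e-06) and the CACCC box at 8.50% against 4.97% (0.83, adjusted p = 0.000276), and both passed under every alternative run, with CpG-rich summits left out too (1.08 and 0.83). The FOX motif (TGTTTAC) was at 4.29% against 6.53%, the GRE at 2.43% against 4.25% and the TCF and LEF motif (ATCAAAG) at 2.35% against 4.16% (exact adjusted p = 0.0232 for each), and the PITX motif (GGATTA) at 8.83% against 12.1% (adjusted p = 0.0189). FOX, GRE and the TCF and LEF motif each lost the call in 6 of 12 alternatives and PITX in 2, and the list of library 1 alone or of library 2 alone was among them for FOX, GRE and PITX. AP-1 (11.8% against 14.5%, exact adjusted p = 0.0847), TEAD (13.5% against 13.0%, adjusted p = 0.796) and GRHL (4.29% against 3.82%, adjusted p = 0.649) did not pass.

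Proximal peaks were found next to immediate-early, smooth muscle, clock, cytoskeletal and Notch genes, among others. Of 21670 coding genes 901 (4.16%) were nearest to a proximal peak, and the lists below are read beside that share. It covers all coding genes and was not matched to a list for expression or for the number of starts per gene. They were chosen with earlier results of these data known, so their counts are a description and carry no test. Genes of the early response to growth factors and stress had a proximal peak in 14 of 30 cases (46.7%). Among them, Zfp36, a decay factor of messenger RNA, had 53.5 at -1914 (26.1 in library 1, 30.0 in library 2) and 2 weaker peaks downstream. The Zfp36 peak at -1914 was not in the conservative set, and the 2 weaker ones were. Fosl2, a Fos-family member of AP-1, had 39.3 at -1851, Junb, a Jun-family member, had 38.9 at +2200 past its end, and Klf6 had 25.8 at +8657. Ccn1, a secreted matrix protein and TEAD target listed under its older symbol Cyr61, had 30.3 at -7193 and 24.2 at -7408 in 1 region, with 11.2 in library 1 and 16.9 in library 2. Jund, Ier2, Ier3, Dusp1, Dusp6, Btg2, Klf4, Zfp36l1 and Zfp36l2 had values from 11.1 to 32.7 for their strongest. Of these genes Jund, Ier2, Ier3 and Btg2 had a peak in the conservative set, and the others had none.

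Smooth muscle genes had a proximal peak in 9 of 24 cases (37.5%), and in 5 in the list of library 2 alone. Smtn, smoothelin, had 50.7 at +1680 in its first intron, with 37.8 in library 1 and 17.5 in library 2. Myl9, the regulatory light chain of myosin, had 41.0 at +7779, Tpm1, a tropomyosin, 35.8 at -1093, and Myh11, the smooth muscle myosin heavy chain, 29.0 at -1178, 27.2 at +1705 and 23.3 at -5535. The Myh11 peaks differed between libraries, with 7.87 in library 1 and 20.8 in library 2 at -1178 and the reverse order, 19.2 and 7.54, at +1705. None of these Myh11 peaks was in the conservative set, while the named peaks of Smtn, Myl9 and Tpm1 were. Pdlim7, Flna, Tpm2 and Csrp1 had 16.6 to 41.6 for their strongest. Genes of the actin cytoskeleton and cell adhesion had one in 9 of 26 cases (34.6%), with Actg1 (44.6 at +3090), Itgb1 (39.0 at -5589) and Lpp (38.5 at -4661) beside Actn4.

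Squamous epithelial genes had a proximal peak in 6 of 27 cases (22.2%), among them Sfn, the 14-3-3 sigma protein, with 45.4 at -3374 and 37.0 at +3316, Perp, a desmosome protein, with 43.8 at +5383, Jup, plakoglobin, with 38.4 at +9983, and Ppl, periplakin, with 38.0 at -4207. The Perp peak had 22.2 in library 1 and 22.1 in library 2. Of the listed gastric glandular genes none had one (0 of 22, exact 95% upper bound 15.4%, which holds the 4.16% of all coding genes), and gastric transcription factors 1 of 24, which was Tead1, or 2 in the list of library 1 and 4 in that of library 2. In the list of library 1 alone 1 glandular gene had one. Pga5, a pepsinogen gene of gastric chief cells that is outside the list and was chosen after its values were seen, was nearest to 4 proximal peaks in 2 regions, the strongest with 39.1 at +8220 (23.3 in library 1, 13.8 in library 2). Endocrine, blood and immune, liver and forebrain genes had none in 20 each (upper bound 16.8%), with 1 liver gene in the list of either library and 1 blood or immune gene in that of library 1. The tissue label could be looked at only through such neighbours, and peaks near a gene do not measure its expression.

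Clock and glucocorticoid-responsive genes had a proximal peak in 9 of 26 cases (34.6%). Beside Per1 and Klf9, Bhlhe40, a clock repressor, had 58.2 at +7628 (40.3 in library 1, 16.5 in library 2), Fkbp5, a glucocorticoid-induced chaperone partner, had 44.0 at -5067, and Nr1d1, the REV-ERB alpha receptor, had 34.5 at +1432 and 33.2 at -8211. Errfi1, Cebpd, Cry2 and Per2 had 23.5 to 27.9. All but Per2 were in the conservative set, beside 62.1% of all proximal peaks.

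Signalling lists were mixed. Notch genes had a proximal peak in 6 of 18 cases (33.3%), with Nrarp, a feedback inhibitor, at 47.9 (-7961), Notch3 at 35.8 (+4418), Jag1, a ligand, at 35.5 (+1872) and Hes1, a target, at 35.3 (+5280). Notch3 at +4418 had 28.8 in library 1 and no matched peak in library 2. No Notch3 peak and not the Jag1 peak at +1872 was in the conservative set, while the named peaks of Nrarp and Hes1 were. Of the BMP and TGF-beta list 4 of 28 genes had one (14.3%): the targets Id1, Id2 and Id3, with 65.5, 24.3 and 54.2 for their strongest, and Smad2. Hippo and TEAD genes had one in 5 of 21 cases (23.8%), Ccn1 among them, with Tead3 at 62.7 (+9082), Ajuba at 35.2 (+1755) and Amotl2 at 34.7 (+6167). Wnt genes had 2 of 30, Ctnnb1 (22.2 at +6529) and Nkd1 (25.1 at -9674), and hedgehog genes 1 of 14, Ptch1, the receptor, with 44.3 at -2321, or 0 in the list of library 1.

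Mesenchymal transcription factors had a proximal peak in 4 of 26 cases (15.4%): Nfia (34.2 at +2255), Nfib (32.4 at +7792), Nfix (24.8 at +2306) and Barx1, a homeobox gene of stomach mesenchyme (25.7 at -7123). Nfix had 17.6 in library 1 and no matched peak in library 2. The Nfib peak was in the conservative set, and those of Nfia, Nfix and Barx1 were not. Matrix genes had 2 of 24 (4 in the list of library 1 and 6 in that of library 2), Col4a1 (38.3 at +2004) and Col1a1 (29.3 at -7029), and endothelial genes 2 of 20, Egfl7 (43.6 at -1358) and Ets2 (43.2 at -3444). Enteric neural genes had 1 of 20, Tbx2 (23.8 at +4108), with 0 in either library's list. Ribosomal protein genes had 1 of 24, Rpl13 (34.5 at -1885, in the first intron of another gene), or 3 in the list of library 1.

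**Figure D5:**
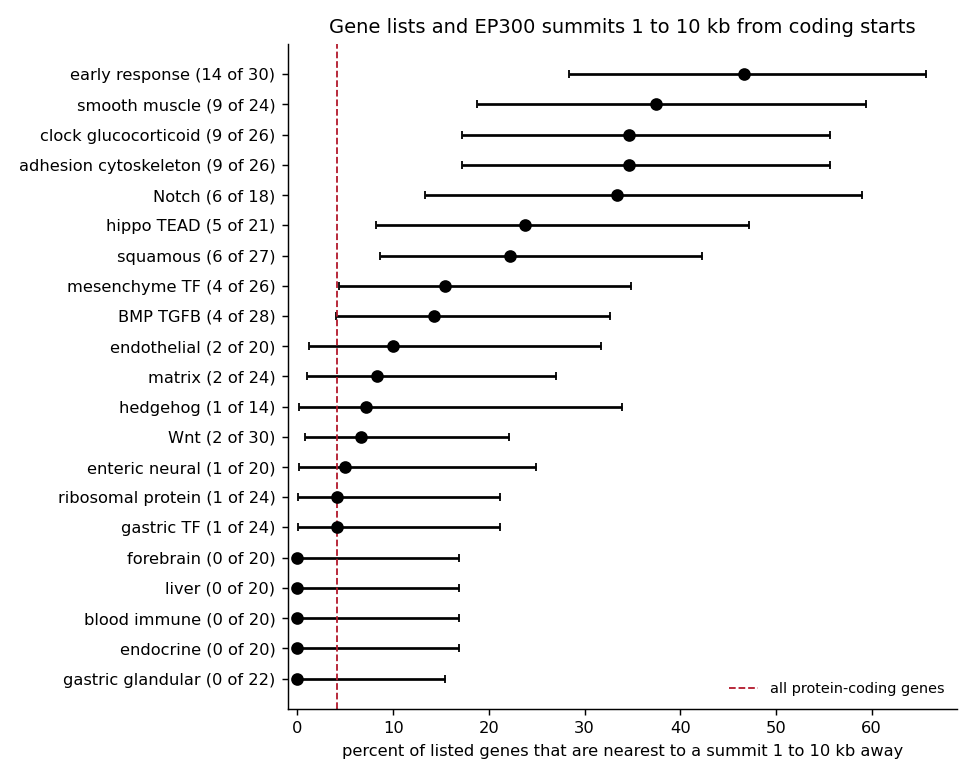
Percent of the genes of each list that are nearest to a proximal peak (x axis), with exact 95% Clopper-Pearson intervals, for 21 lists (y axis, genes with a peak of genes annotated); the dashed line is the 4.16% of all protein-coding genes. Early response (14 of 30) is the highest and 5 lists are at 0.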

How the data were processed

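EP300 chromatin immunoprecipitation followed by sequencing was done in 2 libraries of newborn mouse stomach, and 5 peak lists on mm10 were used (per the labels and file names): 1 per library, 1 of pooled reads, and IDR sets called optimal and conservative. The deposited signal of each peak is the peak caller's value, on its own scale in each list, and summits are deposited as distances from a peak's first base. For the aligner and the peak caller, names are not given in the sources read. Each library's list ends at 300000 peaks, so its length says nothing of depth.

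From these, summits were placed by GENCODE M21 (transcripts typed protein_coding; non-coding RNA genes without pseudogenes) and sequence was read from GRCm38. A library's signal for a peak is its strongest peak with the summit inside. Shares were compared by two-sided Fisher's exact tests, summit and flank motifs by exact McNemar tests, with Benjamini-Hochberg adjustment over 35 motifs and 0.5 added to counts for log2 odds ratios. Windows with a match were counted once. Named genes are those of the 12 strongest upstream and first-intron peaks, the 8 genes with most proximal peaks and up to 4 genes of each list by number of peaks, then signal; others were chosen after their values were seen. Listed symbols absent from the annotation were matched through RefSeq synonyms (Cyr61 to Ccn1, Ctgf to Ccn2). The proximal peaks, lists and motifs were chosen with earlier results of these data known. Code was tested on simulated data. Python 3.11.15, pandas 2.3.3, scipy 1.17.1, pysam 0.24.0 and matplotlib 3.10.9 were used. No read counts, controls or raw reads were analysed here, and both libraries share a biosample label.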

Additional observations from a re-analysis of the deposited data

How the results depend on the processing

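No paired analysis was possible because the series has a single group. Of the results that answer a comparison, 220 repeats under the alternatives kept their direction and side of the threshold, or, for counts and shares, their range. Another 39 repeats left that range, 7 turned in direction, 4 lost the threshold and 3 gained it. Calls of single motifs and counts of single gene lists are not in these numbers. Of their repeats 577 kept their result, 69 lost the threshold, 39 left their range and 1 turned in direction. Among the comparisons that passed under every alternative run were the density by distance and the signal and conservative share against promoter peaks. The CpG-rich shares against promoter and distal peaks and by distance were among them too. Taking 1 peak per region was run for the signal and for motifs against flanks only, not for density, CpG-rich or conservative shares. Those that did not follow, and the cause was not tested unless stated. Leaving out a library (taking the 7737 strongest peaks of the other) gave log2 odds ratios of 0.035 to 0.15 for signal against distal peaks, 0.24 to 0.46 for upstream against first-intron signal, -0.26 to -0.091 for the conservative share against distal peaks, -0.46 to -0.32 for a promoter summit upstream against first intron, 0.39 to 1.26 for it by distance and 0.54 to 0.99 for the CpG-rich share upstream against first intron. It also gave 75.1 to 75.8% matched in both lists, 12.5 to 14.8% in regions with other peaks, 0 to 2 motifs less frequent than in flanks and 2 less frequent than at distal summits. That matched share measures only the match to the library left out, because a peak's own list holds its summit by construction. The conservative list gave 0.15 for the promoter summit upstream against first intron, 0 motifs less frequent than in flanks and 2 less frequent than at distal summits. The stronger part of the optimal list, smaller by construction, gave 556 proximal peaks at 503 genes, 96.4% matched in both lists, 54.1% with GC over 50%, 5.75% in regions with other peaks, -0.062 for the promoter summit by distance, 1.00 for the CpG-rich share upstream against first intron and 2 motifs less frequent than at distal summits. Starts of all transcripts of coding genes gave 29.8% upstream, 30.6% first intron, 44.7% with GC over 50% and 0 motifs less frequent than in flanks. With 1 start per gene there were 38.7% upstream, 54.4% with GC over 50%, log2 odds ratios of 0.073 for the promoter summit upstream against first intron, 0.39 for it by distance and -0.71 for the CpG-rich share upstream against first intron, 0 motifs less frequent than in flanks, and 4 more and 7 less frequent than at distal summits. No exclusion near non-coding starts, or exclusion near pseudogenes too, gave 1 motif less frequent upstream. From 2 kb on there were 30.3% in first introns, 0.18 for the promoter summit upstream against first intron, 0 motifs less frequent than in flanks, 1 less frequent upstream and 1 less frequent than at distal summits. A window of 50 bp each side gave 0 motifs less frequent than in flanks and 1 less frequent than at distal summits, and flanks 500 bp away or nearer the start gave 0 less frequent. Of the alternatives chosen after seeing the data, leaving out distal summits near non-coding starts gave 4 motifs more frequent at proximal summits, and leaving out CpG-rich summits gave 1 motif less frequent upstream and 6 more and 3 less frequent than at promoter summits, with the homeobox motif turning to -0.051. With 1 peak per region for the motifs, 10 were more and 1 less frequent than in flanks. Depth is unknown, so no statement on peaks that were not called can be made.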
